A study of Homo sapiens with 12 samples.

Results

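This account describes the messenger RNA of unmodified SH-SY5Y cells, the reference state of a study of FMR1 knockout lines. The members were chosen by label: all libraries from wild-type cells, which are 6 of the 12 in the series, and no knockout library was used. SH-SY5Y is an established human neuroblastoma line whose cells resemble immature sympathetic neurons. Before RNA was taken, the cells had spent 2 weeks in SILAC medium, a DMEM:F-12 formulation with GlutaMAX, sodium bicarbonate and 10% dialyzed fetal bovine serum. In 3 libraries (heavy 1 to 3) lysine and arginine carried heavy isotopes of carbon and nitrogen, and in the other 3 (light 1 to 3) they were the ordinary amino acids. Wild type here means that FMR1 was left intact, and the cells are still those of a tumour line. The labels give the 3 libraries of a medium only a number, and nothing says that they came from separately derived cultures, and p-values then measure only their spread, which may be technical. Poly(A) RNA of the whole culture was measured, in which fewer cells of a type and less RNA per cell cannot be told apart.

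Levels are counts per 1000000 counts (CPM) of the TMM-scaled library size, given as mean ± SD over the 6 libraries (n = 6) unless a library is named. A gene was called expressed at 1 CPM or more in all 6 libraries, and not detected where no library held more than 3 counts, the limit that a count of 0 allows; genes between were called low. The libraries held 29181584 to 40257027 counts, so that 3 counts corresponded to between 0.0746 and 0.102 CPM, a limit that covers counting error only. CPM grows with transcript length, so an order among named genes is given as CPM per kb over the union of annotated exons unless CPM is named; level classes, medians in CPM and the genes with the most counts describe shares of the reads. Of 19738 protein-coding genes, 11559 were expressed, which is 58.6%, while 2438 were low and 5741 were not detected. Their median level was 7.07 CPM or 1.33 CPM per kb, and 2032 of them (10.3%) had a mean of at least 100 CPM.

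Sympathetic neurons and the chromaffin cells of the adrenal medulla arise from the neural crest under a shared set of transcription factors, among them PHOX2A, HAND2 and GATA3. These cells turn tyrosine into catecholamines in steps: tyrosine hydroxylase (TH) makes L-DOPA, DOPA decarboxylase (DDC) makes dopamine, dopamine beta-hydroxylase (DBH) makes noradrenaline, and PNMT makes adrenaline. The products are packed into dense-core granules by the transporters SLC18A1 and SLC18A2, together with chromogranins and neuropeptides. Neuroblastoma cells that keep this programme are termed adrenergic, and those with a programme nearer to mesenchyme are termed mesenchymal.

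The granule genes open with sequence, because several share a short motif close to their start. Promoters were taken from RefSeq (GRCh38.p14), from 250 bases before to 50 after the start of each gene, and matched 14821 protein-coding genes of the count table by symbol. The cyclic AMP response element TGACGTCA, which reads the same on both strands, stood in 2.57% of these promoters. Among neuropeptide and granin genes it stood in 5 of the 21 with a promoter, namely CHGA, VGF, PCSK1, CARTPT and SST, and in the catecholamine list in SLC18A2. The 120 bases that end just before the start of 4 of them follow, with the element in capitals, since they hold 1 motif at very different transcript levels.
CHGA (chr14:92923030-92923149, plus strand): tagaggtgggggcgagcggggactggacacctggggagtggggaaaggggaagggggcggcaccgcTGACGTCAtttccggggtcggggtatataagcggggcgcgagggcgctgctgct
VGF (chr7:101165570-101165689, minus strand): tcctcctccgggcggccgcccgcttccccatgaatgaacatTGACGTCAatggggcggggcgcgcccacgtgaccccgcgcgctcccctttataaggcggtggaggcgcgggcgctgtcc
PCSK1 (chr5:96433249-96433368, minus strand): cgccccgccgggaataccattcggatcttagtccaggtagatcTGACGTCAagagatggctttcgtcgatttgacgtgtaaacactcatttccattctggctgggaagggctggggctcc
SST (chr3:187670395-187670514, minus strand): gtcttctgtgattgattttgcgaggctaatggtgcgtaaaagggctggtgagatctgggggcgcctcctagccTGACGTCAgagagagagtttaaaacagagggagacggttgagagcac
The element began 54 bases before the start of CHGA, 79 before that of VGF, 77 before that of PCSK1 and 47 before that of SST. CHGA, the major granule protein chromogranin A, measured 2219, 2346 and 2614 CPM in heavy 1 to 3 and 2569, 2538 and 2506 CPM in light 1 to 3. VGF, a secreted neuropeptide precursor, measured 361, 395 and 509 CPM in heavy 1 to 3 and 454, 432 and 376 CPM in light 1 to 3. In contrast PCSK1, a prohormone convertase, lay at 0.0874 ± 0.0654 CPM, and SST, which encodes somatostatin, had 0 counts in every library. A match to these letters is a description of the sequence, and the 6 genes that held it in the granule and catecholamine lists lay anywhere between 0 and 2465 CPM. Over all matched promoters, the element stood in 0.993% of genes not detected and 1.00% of low genes. The share was 3.59% in expressed genes under 100 CPM and 2.97% from 100 to under 1000 CPM. At 1000 CPM or more it was 7.14% (4 of 56), and these shares were not tested.

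A second sequence feature ran along the abundance scale. Transcripts of the translation apparatus are known to begin with a C followed by a run of pyrimidines (C or T). Of all matched promoters 4.67% had a C at the start followed by 4 pyrimidines, against 3.06% of genes not detected, 9.49% of those with a mean from 100 to under 1000 CPM, and 42.9% (24 of 56) of those with a mean of at least 1000 CPM. Among cytosolic ribosomal protein genes the share was 68.9% (42 of 61). These genes made up 36 of the 84 protein-coding genes with a mean of at least 1000 CPM, matched promoter or not, so the 2 shares are not independent. The start windows below run from 10 bases before the start (lower case) to the tenth base of the transcript (capitals), to set abundant genes with the feature beside abundant genes without it, with ribosomal protein genes among both.
EEF1A1: cgtgaacgttCTTTTTCGCA
EEF2: cgtcagcgttCTCTTCCGCC
RPL13A: aaacctcctcCTTTTCCAAG
TPT1: ctgagtcggcCTTTTCCGCC
RACK1: gcttttctctCTCTCTTTCA
TUBB: tcctttctccCTCTCAGAAC
GAPDH: gtgcatccctGTCCGGATGC
CHGA: cgctgctgctGCCACCGCTC
DBH: cagagagctcACCCCAGCCA
HSP90AB1: caggtactccACTCTCAGTC
RPL4: cgggagtggtAAGCACTTCC
RPS4X: ctccagccccAATTTCTACG
GNAS: gctggggtcaACTGCTTGAA
TUBA1A: cctatgtgccGCAGGTTCTC
By the 1 annotated start of each gene, the first 6 have the run and the last 8 do not. Where transcripts begin in these cells was not measured. All 14 genes have means above 2000 CPM. CpG density also differed along the scale, with a median observed over expected ratio of 0.290 in promoters of genes not detected, 0.620 in low genes, 0.845 in expressed genes under 100 CPM and 0.924 at 1000 CPM or more. TATAAA on the transcribed strand, starting 20 to 40 bases before the start, stood in 8.73% of promoters of genes not detected and in 3.47% of all. The share was 4.41% in low genes, 1.06% in expressed genes under 100 CPM, 1.39% from 100 to under 1000 CPM and 5.36% (3 of 56) at 1000 CPM or more. These are descriptions of 1 window per gene, with no test.

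**Figure D1:**
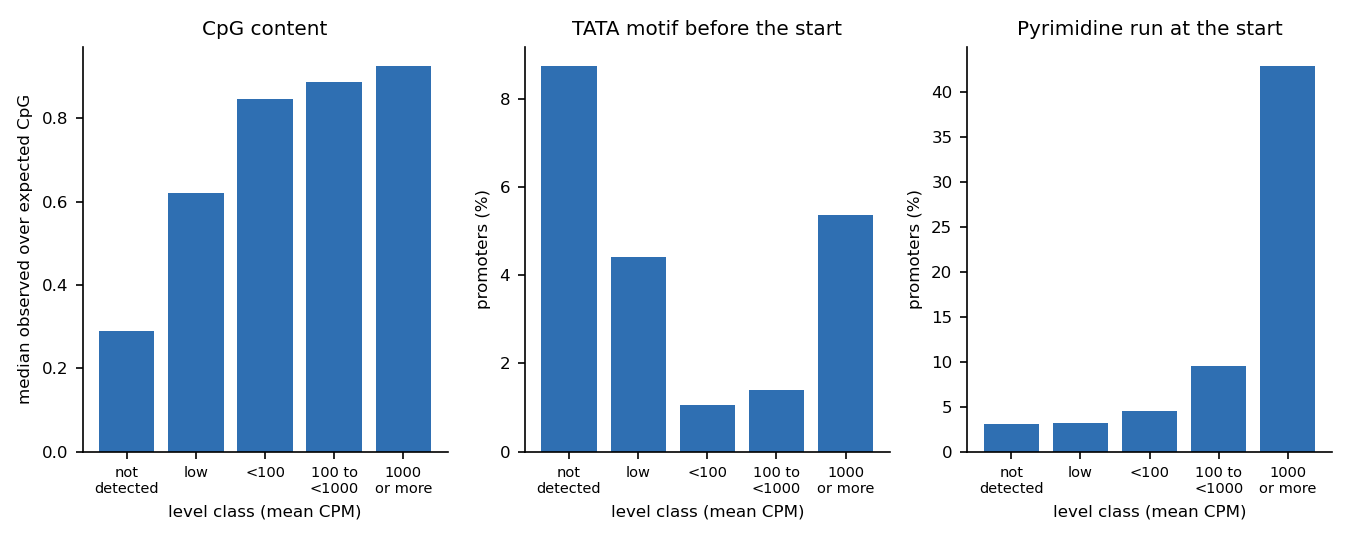
Promoter features by transcript level in wild-type cells: median observed over expected CpG ratio (left), share of promoters with the TATA motif 20 to 40 bases before the start (middle, %) and share with a C and 4 pyrimidines at the start (right, %). Bars stand for genes not detected, low genes, and expressed genes by mean CPM; CpG and the pyrimidine start are highest at 1000 CPM or more (0.924 and 42.9%), and the TATA share is highest among genes not detected (8.73%).

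Of the 4 genes that mark this cell type, HAND2, GATA3 and DBH were abundant, while TH was below 1 CPM in every library. DBH (ENSG00000123454.11; chromosome 9, 133635348 to 133659344, plus strand, GRCh38) measured 2005, 2211 and 2246 CPM in heavy 1 to 3 and 2464, 2385 and 2217 CPM in light 1 to 3. All 6 values lay within 2005 to 2464 CPM, and per kb DBH stood above 99.8% of protein-coding genes. HAND2, a basic helix-loop-helix factor of sympathetic precursors (173524969 to 173530229 on chromosome 4, minus strand), measured 813, 744 and 759.6 CPM in heavy 1 to 3 and 811, 735 and 725 CPM in light 1 to 3. GATA3, a zinc-finger factor needed for noradrenergic differentiation (chromosome 10, 8045378 to 8075203, plus strand), measured 433, 443 and 438 CPM in heavy 1 to 3 and 414, 431 and 402 CPM in light 1 to 3. The values of the 2 media overlapped in DBH and HAND2, and those of GATA3 were higher in all 3 heavy libraries than in any light library, as they were in either direction in 11.3% of the genes compared between media. TH, the rate-limiting enzyme of the pathway (chromosome 11, 2163929 to 2171877, minus strand), measured 0.543, 0.546 and 0.731 CPM in heavy 1 to 3 and 0.849, 0.572 and 0.460 CPM in light 1 to 3. With at most 26 counts in a library, its mean of 0.617 CPM, or 0.190 CPM per kb, was above that of 39.2% of protein-coding genes. Thus 3 of the 4 markers were abundant, and the enzyme of the first step fell in the low class.

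The sympathoadrenal transcription factors were present nearly without exception. Of 20 in the list, HAND2 and GATA3 included, 19 were expressed (95.0%, against 58.6% of all protein-coding genes) and 13 had at least 100 CPM, and the list's median was 144 CPM (43.1 CPM per kb) against 7.07 CPM (1.33 CPM per kb) over all protein-coding genes. PHOX2A led per kb at 321 ± 19.9, followed by GATA2 at 227 ± 11.5, HAND2 at 212 ± 10.7, GATA3 at 124 ± 4.59, and high values were also seen for ISL1 at 93.5 ± 4.52 and TFAP2B at 92.7 ± 2.83 CPM per kb. PHOX2A is a paired homeodomain factor that switches on DBH and TH. The intervals of GATA2 and HAND2 overlapped within 1 SD, as did those of ISL1 and TFAP2B, so the order within these sets is not resolved. GATA2, the close relative of GATA3, measured 1027, 1068 and 1039.7 CPM in heavy 1 to 3 and 991, 1024 and 921 CPM in light 1 to 3. INSM1, a zinc-finger factor of neuroendocrine precursors, was the member not detected, with at most 3 counts in a library.

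The enzymes and transporters of catecholamines formed an uneven series. DDC measured 175, 179 and 176 CPM in heavy 1 to 3 and 178, 175 and 178 CPM in light 1 to 3, and its SD of 1.74 CPM is among the 8 smallest relative to the mean of all genes with a mean of at least 100 CPM. CYB561, the cytochrome that supplies electrons for DBH inside granules, stood at 389.7 ± 19.8 CPM. The enzymes that make or recycle tetrahydrobiopterin, the cofactor of TH, were all expressed: GCH1 at 33.3 ± 3.13, PTS at 27.0 ± 2.30, SPR at 13.6 ± 0.493, PCBD1 at 58.6 ± 2.21 and QDPR at 44.2 ± 2.46 CPM. PNMT, the last enzyme of the pathway, was near the limit of expression at 2.88 ± 0.615 CPM. Of the 2 vesicular monoamine transporters, SLC18A1 of chromaffin cells measured 17.5 ± 1.48 CPM and SLC18A2 of neurons 0.283 ± 0.0725 CPM. For SLC18A2 56.1% of its exon length lies opposite exons of PDZD8 on the other strand, and the part of this in its low value was not tested. SLC6A2, the noradrenaline transporter of the cell surface, was expressed at 53.1 ± 3.54 CPM, whereas SLC6A3, the dopamine transporter, lay at 0.0433 ± 0.0499 CPM. Monoamine oxidases, which break catecholamines down, were present as MAOA (20.9 ± 0.805 CPM) and MAOB (2.69 ± 0.479 CPM). In all 15 of 18 members were expressed, 3 were low and 0 were below detection.

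**Figure D2:**
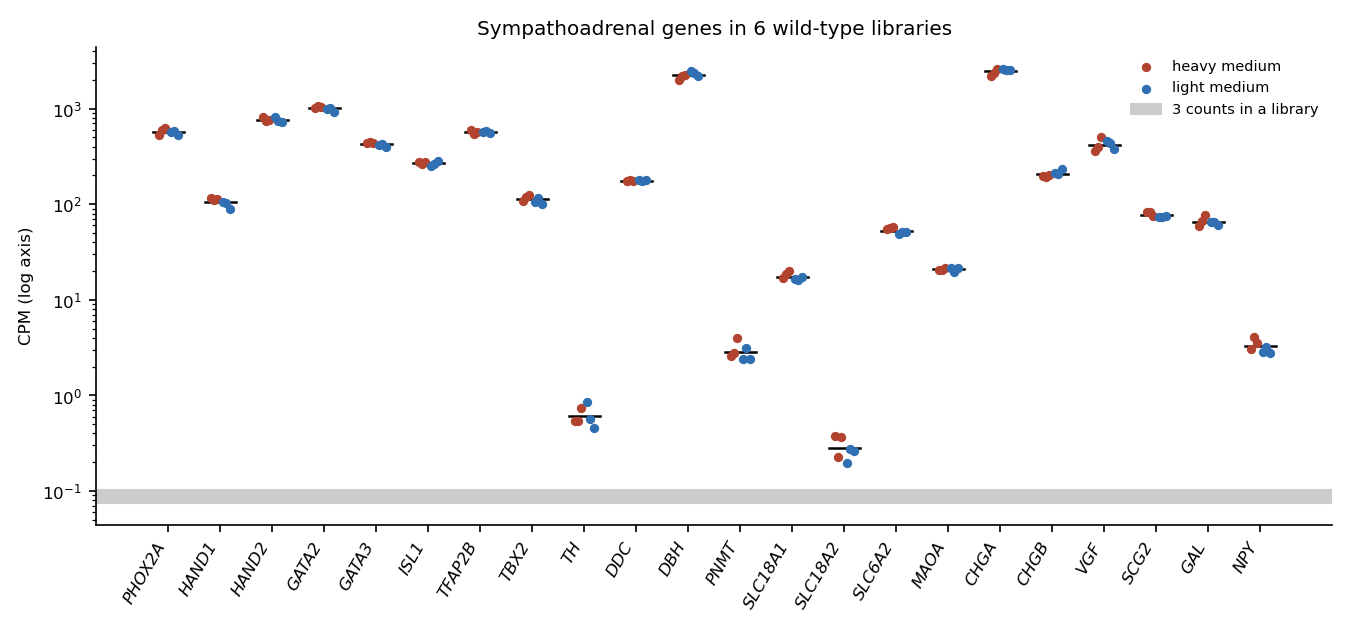
CPM of 22 sympathoadrenal genes in each of the 6 wild-type libraries (log axis; red, heavy medium; blue, light medium; bar, mean; grey band, the level of 3 counts in a library). DBH and CHGA lie above 2000 CPM in every library, and TH and SLC18A2 lie below 1 CPM in every library.

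Markers of other transmitter types were mostly missing. Of 18 genes in that list 5 were expressed and 8 were not detected. GAD1 and GAD2, which make GABA, TPH2, which makes serotonin in neurons, HDC, which makes histamine, and the vesicular glutamate transporters SLC17A6 and SLC17A8 were among those not detected. A cholinergic pair was split: SLC18A3, the vesicular acetylcholine transporter, measured 20.3, 23.3 and 28.4 CPM in heavy 1 to 3 and 25.97, 25.8 and 21.9 CPM in light 1 to 3, whereas CHAT, which makes acetylcholine, lay at 0.0765 ± 0.0449 CPM. SLC18A3 is encoded at 49610301 to 49612720 on chromosome 10, plus strand, with 0% of its exon length shared with another gene of the annotation. The choline transporter SLC5A7 was not detected. ACHE and BCHE, which break acetylcholine down, were at 4.48 ± 0.851 and 6.29 ± 0.146 CPM.

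Granule proteins were abundant and classical neuropeptides scarce. CHGA stood at 795 ± 48.8 CPM per kb, VGF at 156 ± 20.3, SCG3 at 57.8 ± 2.83 and CHGB at 45.8 ± 2.99. GAL, which encodes galanin, was the leading peptide precursor outside the granin class at 50.5 ± 5.14 CPM per kb (65.7 ± 6.69 CPM), and VIP (10.4 ± 1.36 CPM) and NPY (3.27 ± 0.496 CPM) were also expressed. Of the processing enzymes, CPE (78.3 ± 2.09 CPM) and PAM (64.6 ± 2.27 CPM) were expressed, while the convertase PCSK2 was not detected and PCSK1 lay at the limit of detection. PENK, POMC, PDYN, TAC1, CCK, CALCA, GRP and ADCYAP1 were not detected either, and with PCSK2 and SST they make up the 10 of 26 members below detection. Of 12 chromaffin and bridge-cell genes 8 were expressed (66.7%, against 58.6% of all protein-coding genes), 5 of them with at least 100 CPM. PENK and HTR3A, which mark chromaffin and bridge cells of the developing adrenal, were not detected, whereas DLK1, another chromaffin gene, measured 329.9 ± 33.2 CPM.

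Genes of the neuronal cytoskeleton and axon were almost all on, with 30 of 32 expressed and none below detection. Per kb, STMN2, a tubulin-binding protein of growing neurites, stood at 798 ± 34.3 and TUBA1A at 663 ± 34.2 CPM per kb, an order that turns with the length of the longest transcript, ahead of UCHL1 at 272 ± 9.98, STMN1 at 219 ± 6.81 and TUBB2B at 213 ± 5.91. The RNA-binding proteins ELAVL3 and ELAVL4 measured 305 ± 6.58 and 240.4 ± 15.9 CPM, and the neurofilaments NEFM, NEFL and NEFH measured 229 ± 20.8, 179.5 ± 8.23 and 93.7 ± 2.94 CPM. INA, another intermediate filament, measured 266 ± 4.31 CPM. Synaptic genes were present at SNAP25 155 ± 5.07, SYP 86.1 ± 4.05 and SYT1 66.5 ± 2.97 CPM. The low members were PRPH, a filament of peripheral neurons, at 0.207 ± 0.0558 CPM and RBFOX3, the antigen known as NeuN, at 0.0463 ± 0.0529 CPM. PRPH has 56.2% of its exon length opposite another annotated gene, and the part of this was not tested. TUBB3, a tubulin used as a neuronal marker, read only 18.2 ± 2.50 CPM, and 35.8% of its exon length is shared on the same strand with a second annotated gene.

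Outside the sympathoadrenal line, most members of the marker lists were below the limit of expression. In the hepatocyte and gut list 0 of 10 genes were above detection, and in the muscle and heart list 0 of 10 were expressed and 8 were not detected. Of 10 endothelial markers 8 were not detected, PECAM1, VWF, CDH5 and KDR among them, and of 14 blood cell markers 10 were not detected, including PTPRC, CD3E and HBB. Their expressed members were ESAM at 1.98 ± 0.314 and CD8A at 2.58 ± 0.181 CPM. Epithelial markers had 6 of 12 members below detection, with KRT8 and KRT18 among them, and EPCAM at 1.27 ± 0.342 CPM. The summed level of these 12 lay between 3.32 and 4.08 CPM, of the 14 blood markers between 3.26 and 3.86 CPM and of the 10 endothelial markers between 1.70 and 2.54 CPM. Among glial and microglial markers 8 of 12 were not detected, among them GFAP, MBP and AIF1, and 2 were expressed. These were the astrocyte glutamate transporter SLC1A2, at 7.98 ± 1.14 CPM, and TMEM119, which is used as a microglial marker and measured 108, 114 and 115 CPM in heavy 1 to 3 and 126, 121 and 112 CPM in light 1 to 3. Of 8 pluripotency markers 6 were not detected, with POU5F1 and NANOG among them, and DNMT3B, a DNA methyltransferase also used by dividing cells, was at 16.7 ± 0.789 CPM.

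Of 18 Schwann cell and early neural crest genes 6 were expressed and 5 were low, and SOX10, FOXD3 and PAX3 were among the 7 not detected. The highest of that list per kb was SNAI1 at 4.39 ± 0.496 CPM per kb. The mesenchymal list was mixed, with 18 of 28 expressed (64.3%, against 58.6% of all protein-coding genes). TWIST1, a mesodermal and crest transcription factor, measured 337, 341 and 355 CPM in heavy 1 to 3 and 327, 329.8 and 322 CPM in light 1 to 3, and NES, the intermediate filament of precursors, 365 ± 11.1 CPM. In contrast VIM, the filament of mesenchymal cells, was at 22.0 ± 1.71 CPM, CD44 at 0.472 ± 0.111 CPM, and YAP1, PRRX1, TWIST2, TGFBI and ANXA1 were not detected. WWTR1, the partner of YAP1, lay at 0.0881 ± 0.0773 CPM. Fibronectin (FN1) was present at 46.4 ± 2.50 CPM, SPARC at 88.1 ± 4.66 CPM, and the collagen genes COL1A1, COL1A2 and COL3A1 were at 2.26 ± 0.280, 1.04 ± 0.391 and 0.516 ± 0.243 CPM.

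Position-specifying genes were confined to a few clusters among the 38 HOX genes examined. The 8 expressed members all belonged to the HOXC and HOXD clusters, led per kb by HOXC4 at 10.9 ± 0.344 CPM per kb and HOXD9 at 6.55 ± 0.446. HOXD3 and HOXD4 share 62.2% and 80.5% of their exon length with another gene on the same strand. No HOXA gene in the list was detected, and of the HOXB genes HOXB7 alone passed the detection limit, at 0.0241 ± 0.0451 CPM. Of 20 factors that mark regions of the brain 12 were not detected and 6 were low, and those not detected included OTX2, PAX6, EN1 and LMX1A. The 2 that were expressed, NEUROD1 and NEUROG2, were at 3.67 ± 0.416 and 2.60 ± 0.6254 CPM. NR4A2, which midbrain dopamine neurons need, lay at 0.0895 ± 0.0617 CPM.

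**Figure D3:**
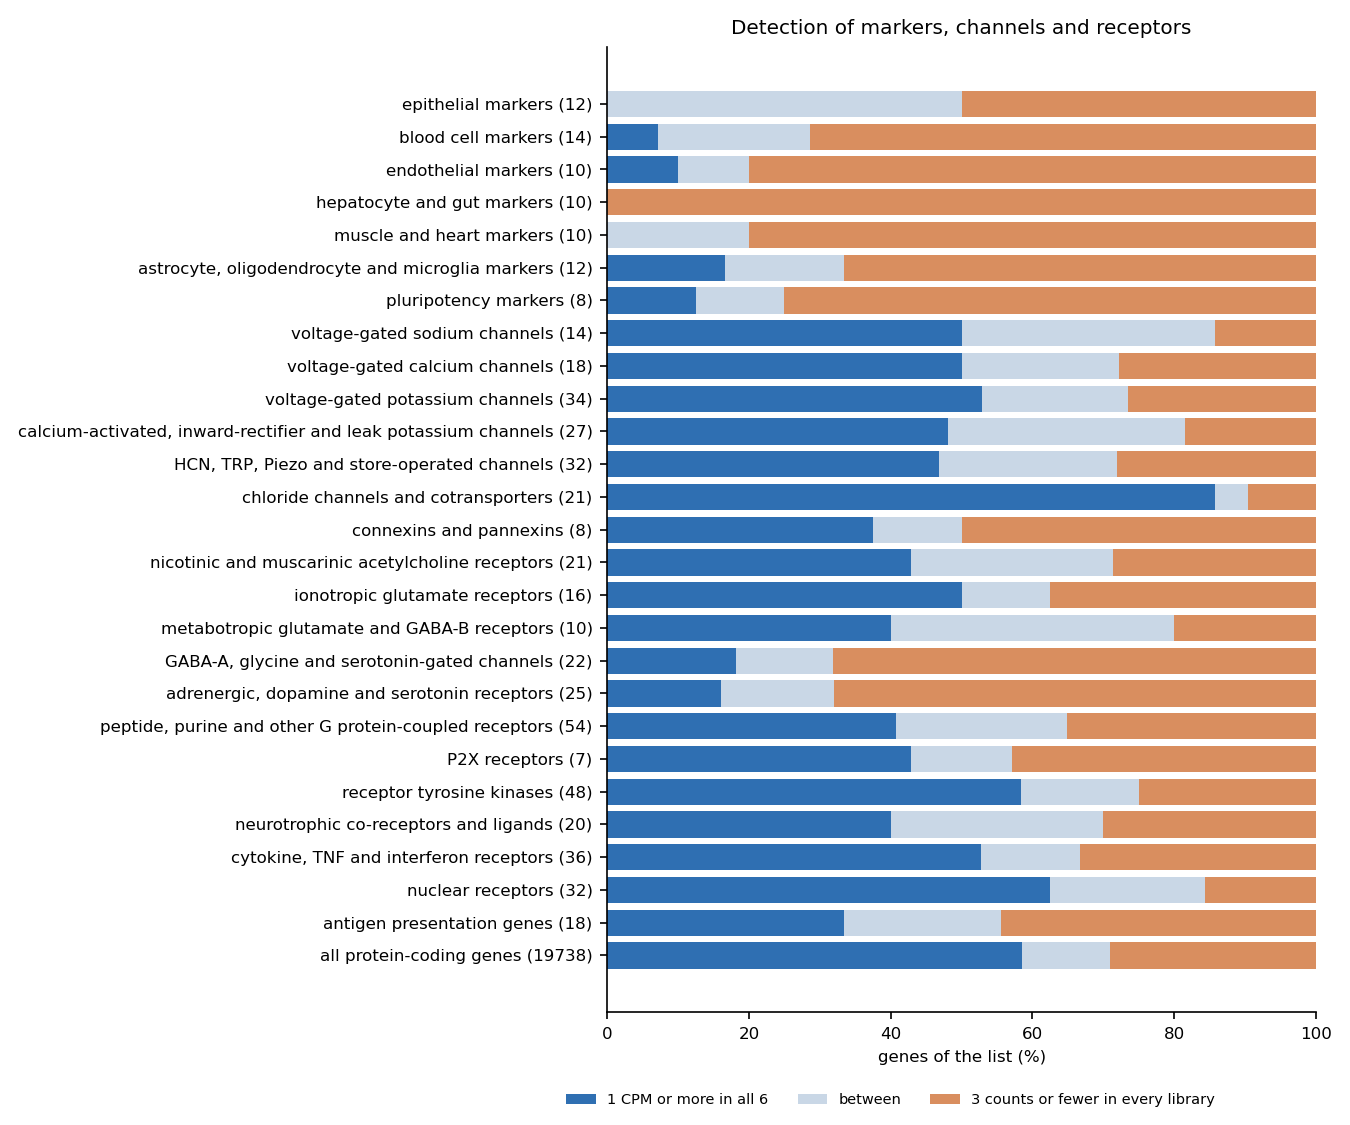
Share (%) of each list of cell type markers, channels and receptors that was expressed (1 CPM or more in all 6 wild-type libraries), low, or not detected (3 counts or fewer in every library), with the number of genes in brackets and all protein-coding genes at the bottom. Hepatocyte and gut markers are wholly below detection, and chloride channels and cotransporters have 18 of 21 members expressed.

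Among oncogenes, 37 of 42 were expressed (88.1%, against 58.6% of all protein-coding genes). MYC measured 140.3, 130.3 and 121 CPM in heavy 1 to 3 and 117, 107 and 96.1 CPM in light 1 to 3, and MYCN, the family member amplified in aggressive neuroblastoma, measured 13.0, 13.0 and 12.2 CPM in heavy 1 to 3 and 12.5, 11.9 and 10.5 CPM in light 1 to 3. Per kb they stood at 39.5 ± 5.28 and 4.67 ± 0.357 CPM per kb, and no library of MYCN reached the lowest value of MYC. ALK, the receptor kinase mutated in familial neuroblastoma, measured 192, 198 and 203 CPM in heavy 1 to 3 and 209, 204 and 213 CPM in light 1 to 3. Of the cell cycle drivers CCND1 and CDK4 measured 126 ± 5.41 and 94.2 ± 3.41 CPM per kb, an order that turns with the length of the longest transcript, beside ODC1, the first enzyme of polyamine synthesis and a MYC target, at 127 ± 1.41. CCND2 had 0 counts in every library, whereas CCND3 was at 27.8 ± 0.813 CPM. TERT, the catalytic subunit of telomerase, was expressed at 17.0 ± 2.00 CPM. CASP8, the initiator caspase of death receptors, lay at 0.235 ± 0.0595 CPM and its relative CASP10 was not detected. CDKN2A and CDKN2B, inhibitors of CDK4 and CDK6, were at 3.15 ± 0.696 and 0.0727 ± 0.0491 CPM. FMR1, the gene removed in the other lines of the study, measured 42.1, 37.2 and 36.2 CPM in heavy 1 to 3 and 37.3, 36.6 and 37.2 CPM in light 1 to 3.

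The most abundant transcripts were mitochondrial and translational. The mitochondrial genome gave 10.2% (range 9.53 to 10.5%) of all counts and cytosolic ribosomal protein genes 8.16% (range 7.74 to 8.57%). The 10 highest genes held 10.1% (range 9.49 to 10.4%) and the 100 highest 25.4% (range 24.7 to 25.8%). MT-ND4 led in CPM at 16377 ± 838, with MT-CO1, MT-CO3 and MT-CO2 at 15954 ± 987, 14244 ± 529 and 11823 ± 269.9. Per kb, the cytochrome oxidase genes MT-CO3 and MT-CO2 stood at 18168 ± 675 and 17284 ± 395 CPM per kb, and MT-ND6, which the other mitochondrial strand encodes, was the lowest of the 13 messenger RNAs at 102 ± 9.19. RGS5, a regulator that shortens G protein signals, was the nuclear gene with the most counts, at 6661, 6244 and 6017 CPM in heavy 1 to 3 and 6728, 6250.2 and 6746 CPM in light 1 to 3. Its symbol stands for 2 gene records in the annotation, so that no value per kb is given. EEF1A1, ACTB, GAPDH, EEF2 and TUBB followed at 6083 ± 194, 4469 ± 209.8, 4149 ± 167, 3970.2 ± 258 and 3875 ± 152 CPM, with GNAS, HNRNPA1 and HSP90AB1 at 2727 ± 109, 2449 ± 78.4 and 2293 ± 37.9 CPM. CHGA and DBH were among the 25 genes of highest CPM, beside ribosomal proteins such as RPL4 (2563 ± 94.5 CPM), RPL13A (2469 ± 160.1 CPM) and RPS4X (2259 ± 36.0 CPM). Per kb, the thymosin gene TMSB10 at 1435 ± 57.6 and GAPDH at 1392 ± 55.9 CPM per kb overlapped within 1 SD over union exons, and GAPDH was higher by the longest transcript. The long noncoding RNA H19 measured 409 ± 31.0 CPM, and MEG3, which is imprinted like H19, was not detected.

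Several housekeeping genes read low or absent where the annotation overlaps. EEF1G, a subunit of the elongation factor, had 0 counts in every library, and 99.9% of its exon length is shared on the same strand with AP002990.1, a readthrough gene at 0.549 ± 0.215 CPM. EIF4A1, a helicase of translation initiation, read 3.68 ± 0.959 CPM per kb (48.6% shared), against 42.4 ± 5.38 CPM per kb for its paralog EIF4A2. Over all protein-coding genes, 10.1% of the 854 with at least 50% of their exon length shared on the same strand were expressed, compared with 53.8% of the 561 with 20 to under 50% shared, 73.9% of the 1907 with less than 20% shared and 53.0% of the 11041 without overlap. The class of 20 to under 50% holds EIF4A1, TUBB3, ALDOA, ASNS, RPS10 and RPL17. Its share expressed was near that of genes without overlap. A mean of at least 100 CPM was seen in 3.03% of this class, against 9.13% of genes without overlap and 14.4% of those with less than 20% shared. Of 76 ribosomal protein genes 5 were below 100 CPM, and 2 of these (RPS10 with 39.4% and RPL17 with 32.7%) had at least 20% shared, against 1 of the other 71. The sources used here do not give how reads in shared exons were counted, its part in these low values was not tested, and the shared percentage is given beside each such gene named. Where a gene has near-identical copies, as TUBB2A, H3F3A, SDHA and SUCLG2 have, its value is uncertain in the same way.

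Voltage-gated sodium channels, which carry the rising phase of the action potential, were expressed for 7 of 14 members. In this list, the calcium channels and both potassium channel lists the share expressed lay between 48.1 and 52.9%, near the 58.6% of all protein-coding genes. The pore-forming subunits SCN3A, SCN8A and SCN2A measured 2.27 ± 0.120, 1.36 ± 0.0616 and 0.724 ± 0.0369 CPM per kb, and SCN9A was at 6.94 ± 0.812 CPM. The accessory subunit SCN3B led the list at 4.32 ± 0.243 CPM per kb. SCN4A of muscle and SCN10A of nociceptors were not detected. Of 18 calcium channel genes 9 were expressed, and CACNA1B, the N-type pore, stood at 4.14 ± 0.240 CPM per kb. The T-type pore CACNA1G was at 1.29 ± 0.137 and the L-type pore CACNA1C at 0.598 ± 0.0372 CPM per kb, while CACNA1A, the P/Q-type pore, lay at 0.0395 ± 0.0380 CPM. CACNA1E, CACNA1H and CACNA1S were not detected. The auxiliary subunits CACNA2D2 and CACNA2D1, which carry pores to the membrane, measured 30.2 ± 1.203 and 13.7 ± 1.00 CPM per kb.

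Potassium channels, which set the resting potential and end the spike, were led per kb by an ERG channel. KCNH2, which encodes it, measured 176, 202 and 219.6 CPM in heavy 1 to 3 and 214, 214 and 192 CPM in light 1 to 3. Per kb it stood at 34.6 ± 2.80 CPM per kb. KCNQ3, a subunit of the M-current, was at 0.681 ± 0.0749 CPM per kb. Of 34 voltage-gated members 18 were expressed and 9 were not detected, and the latter included KCNA1, KCNA4, KCNA5, KCND2 and KCND3, the A-type and delayed-rectifier subunits of many neurons. Among calcium-activated, inward-rectifier and leak channels 13 of 27 were expressed, led per kb by KCNK1 at 8.19 ± 0.321, KCNN1 at 5.73 ± 0.526 and KCNK3 at 5.55 ± 0.511 CPM per kb. The BK channel KCNMA1 was at 21.6 ± 1.75 CPM, and KCNN2, KCNN4, KCNJ6 and KCNK2 were not detected.

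Other channels showed the same unevenness within families. HCN3 (49.8 ± 6.22 CPM) and HCN2 (11.9 ± 1.34 CPM) were pacemaker channels above the limit of expression, and HCN4 was at 0.747 ± 0.209 CPM. ORAI2, a store-operated calcium pore, measured 12.7 ± 0.633 CPM per kb, with ORAI1 at 3.63 ± 0.301 and the sensors STIM2 and STIM1 at 3.80 ± 0.231 and 3.26 ± 0.162. ITPR1 was the inositol trisphosphate receptor highest per kb at 1.91 ± 0.0889 CPM per kb, and the ryanodine receptors RYR1, RYR2 and RYR3 all lay below 1 CPM. TRPM7, a channel kinase, was at 47.2 ± 3.14 CPM, whereas TRPA1, PIEZO2, TRPC4, TRPC5 and TRPC6 were not detected. Chloride channels and cotransporters were the fullest channel list, with 18 of 21 expressed. The chloride importer SLC12A2 measured 1.74 ± 0.125 and the exporter SLC12A5 of mature neurons 0.722 ± 0.0668 CPM per kb. GJC1 was the connexin expressed, at 93.9 ± 5.91 CPM, and GJA1, GJA3, GJB1 and GJB2 were not detected, while the pannexin PANX1 was at 41.1 ± 2.01 CPM.

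Acetylcholine receptors of the ganglionic type stood out among transmitter receptors. CHRNA3 measured 178, 179 and 178 CPM in heavy 1 to 3 and 189, 184 and 191 CPM in light 1 to 3, and per kb it stood at 38.4 ± 1.202, beside CHRNB2 at 24.9 ± 1.81, CHRNB4 at 10.7 ± 0.469 and CHRNA5 at 9.01 ± 0.683 CPM per kb. These subunits form the nicotinic receptors of autonomic ganglia, in which CHRNA3 pairs with CHRNB4. CHRNA7, the subunit of homomeric receptors, was expressed at 5.29 ± 0.644 CPM, CHRNA4 was not detected, and CHRNA1 and CHRNG of muscle were not detected. Muscarinic receptors were present as CHRM2 (37.0 ± 2.77 CPM), CHRM3 (17.9 ± 3.34 CPM) and CHRM1 (7.98 ± 0.814 CPM), with CHRM4 and CHRM5 below 1 CPM. In all 9 of 21 members were expressed (42.9%, below the 58.6% of all protein-coding genes).

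Glutamate receptors were incomplete. GRIN1, the obligate subunit of NMDA receptors, measured 25.8 ± 2.77 CPM, whereas GRIN2A and GRIN2B were not detected, GRIN2C lay at 0.0409 ± 0.0462 CPM and GRIN2D at 2.06 ± 0.333 CPM. Of the AMPA subunits GRIA2 (23.1 ± 2.93 CPM) and GRIA4 (13.9 ± 0.231 CPM) were expressed, GRIA3 was low and GRIA1 was not detected. The kainate subunit GRIK5 led per kb at 14.6 ± 0.698 CPM per kb, with GRIK2 at 2.62 ± 0.166. GRM8, a metabotropic receptor of presynaptic endings, measured 107, 105 and 108 CPM in heavy 1 to 3 and 105, 103 and 122 CPM in light 1 to 3, and GABBR1 (24.8 ± 2.31 CPM) was expressed without GABBR2, the partner it needs to reach the membrane, which was not detected. GABA-A receptor subunits that were expressed included GABRA3 at 4.84 ± 0.516 CPM and GABRD at 2.28 ± 0.262 CPM. Of the 22 genes in that list 15 were not detected, GABRB2 among them.

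Monoamine receptors were mostly missing, with 4 of 25 expressed and 17 not detected. Those expressed were DRD2 at 19.8 ± 1.38 CPM and ADRA2C at 14.3 ± 1.69 CPM, both of them inhibitory receptors for catecholamines, and the serotonin receptors HTR6 at 8.79 ± 0.736 and HTR1E at 6.86 ± 0.681 CPM. ADRB1, ADRA1A, ADRA1B, DRD1, DRD3, HTR1A and HTR2A were not detected.

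**Figure D4:**
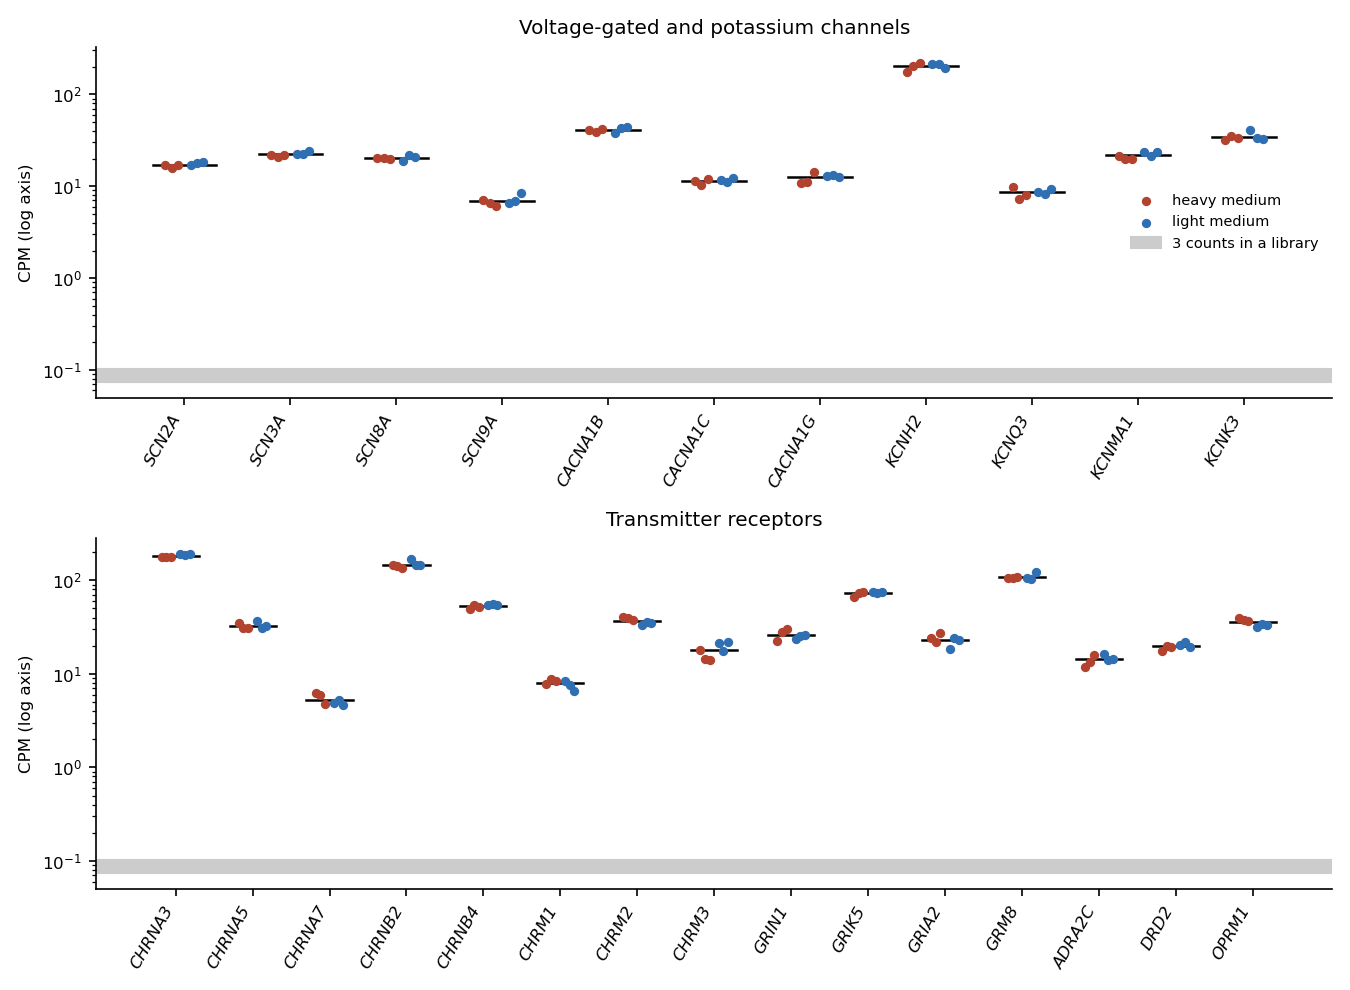
CPM of 11 channel genes (top) and 15 transmitter receptor genes (bottom) in each of the 6 wild-type libraries (log axis; red, heavy medium; blue, light medium; bar, mean; grey band, the level of 3 counts in a library). KCNH2, CHRNA3, CHRNB2 and GRM8 have means above 100 CPM, and all genes drawn lie well above the grey band.

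Among peptide, purine and other G protein-coupled receptors 22 of 54 were expressed (40.7%, below the 58.6% of all protein-coding genes). CXCR4, the receptor of the chemokine CXCL12, stood highest per kb at 55.2 ± 5.04 CPM per kb, followed by ADCYAP1R1, the receptor of the peptide PACAP, at 21.2 ± 0.578. The mu and delta opioid receptors OPRM1 and OPRD1 were expressed at 35.6 ± 2.99 and 12.6 ± 1.14 CPM, the nociceptin receptor OPRL1 at 6.10 ± 0.979 CPM, and the kappa receptor OPRK1 was not detected. AGTR1, F2R and HRH3, which respond to angiotensin, thrombin and histamine, measured 23.9 ± 1.74, 57.5 ± 3.59 and 21.4 ± 2.07 CPM. GALR1, GALR2, NPY1R and NPY5R were not detected, although GAL and NPY were expressed. P2RX7, P2RX4 and P2RX6 were the ATP-gated channels expressed, at 9.16 ± 1.04, 7.96 ± 0.820 and 5.63 ± 0.304 CPM, and P2RX1, P2RX2 and P2RX3 were not detected.

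Receptor tyrosine kinases were expressed for 28 of 48 members, 58.3%, which is close to the 58.6% of all protein-coding genes. ALK led per kb of union exons at 27.6 ± 1.01 (PTK7 leads by the longest transcript), followed by PTK7 at 21.0 ± 0.709, DDR2 at 13.9 ± 0.834 and PDGFRB at 11.7 ± 0.271 CPM per kb. RET, the receptor of the GDNF family, measured 36.9 ± 1.97 CPM, and of its co-receptors GFRA3 (31.7 ± 2.24 CPM) was expressed while GFRA1 and GFRA2 were low. The neurotrophin receptors NTRK2 and NTRK3 were low, at 0.616 ± 0.139 and 0.259 ± 0.153 CPM, and NGFR was at 5.07 ± 0.718 CPM. IGF1R and INSR measured 73.5 ± 2.47 and 42.5 ± 1.41 CPM, and FGFR1 72.6 ± 2.05 CPM, while EGFR was at 5.04 ± 0.343 CPM and KDR, FLT1, CSF1R and AXL were not detected. MDK, a heparin-binding growth factor, was the leading ligand at 334 ± 25.6 CPM per kb, and the neurotrophin BDNF lay at 0.249 ± 0.0990 CPM.

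Receptors for cytokines and morphogens were expressed for 19 of 36 members (52.8%, near the 58.6% of all protein-coding genes). CNTFR, the receptor subunit for ciliary neurotrophic factor, stood first per kb at 81.1 ± 5.75 CPM per kb, its signalling partner IL6ST was at 5.25 ± 0.483, and LIFR, the third chain of that complex, was at 2.50 ± 0.508 CPM. TGFBR1 measured 12.6 ± 0.649 CPM per kb against 0.572 ± 0.0944 for TGFBR2. Of the death receptors TNFRSF10B was expressed at 58.3 ± 2.11 CPM, FAS lay at 0.449 ± 0.148 CPM and TNFRSF1A was not detected. IL6R, IL1R1, IL4R, TLR2, TLR3 and TLR4 were not detected. Among 32 nuclear receptors 20 were expressed (62.5%, near the 58.6% of all protein-coding genes). NR2F6 was highest per kb at 18.6 ± 1.95, with RARA, RARG and the retinoid partner RXRB at 12.5 ± 0.728, 9.11 ± 0.537 and 13.5 ± 0.520 CPM per kb. The glucocorticoid receptor NR3C1 was at 4.94 ± 0.729 CPM, and ESR1, PGR and VDR were not detected.

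Antigen presentation was partial. B2M, the light chain shared by class I molecules, measured 59.7 ± 1.99 CPM, HLA-C 7.42 ± 1.35 CPM and HLA-B 0.102 ± 0.0753 CPM. HLA genes are close paralogs, and reads can be split among them. TAP1, PSMB8 and PSMB9, which feed peptides into the pathway, and the class II regulator CIITA with HLA-DRA and HLA-DRB1 were not detected, and NLRC5, the class I regulator, lay at 0.0677 ± 0.0536 CPM.

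Metabolic lists varied in the share expressed, with 2 of 10 genes in steroid synthesis and 28 of 29 in the citric acid cycle. The share over all protein-coding genes was 58.6%. In glycolysis 25 of 37 genes were expressed, and the 8 not detected were mostly isoenzymes of other tissues, PKLR, GAPDHS, PGK2 and LDHC among them. Per kb, GAPDH stood at 1392 ± 55.9, ENO1 at 346 ± 15.1, TPI1 at 275 ± 10.5, PKM at 175 ± 8.00 and LDHA at 130.4 ± 3.74 CPM per kb. ENO1 exceeded the neuronal form ENO2, at 46.3 ± 1.71, in every library. HK1 and HK2, which trap glucose, were at 23.5 ± 0.616 and 17.4 ± 0.715 CPM per kb. Of the phosphofructokinases PFKM stood at 23.9 ± 0.600, PFKP at 18.2 ± 0.928 and PFKL at 8.38 ± 0.766 CPM per kb. ALDOC was at 33.8 ± 2.57 CPM per kb against 4.32 ± 0.509 for ALDOA, of whose exon length 42.3% is shared with another gene on the same strand. Of the glucose transporters SLC2A1 measured 149 ± 8.60 CPM, SLC2A3, the usual neuronal transporter, and SLC2A2 were not detected and SLC2A4 was at 5.28 ± 0.568 CPM. The lactate carrier SLC16A1 measured 131 ± 5.82 CPM, SLC16A3 0.661 ± 0.107 CPM, and SLC16A7 was not detected.

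**Figure D5:**
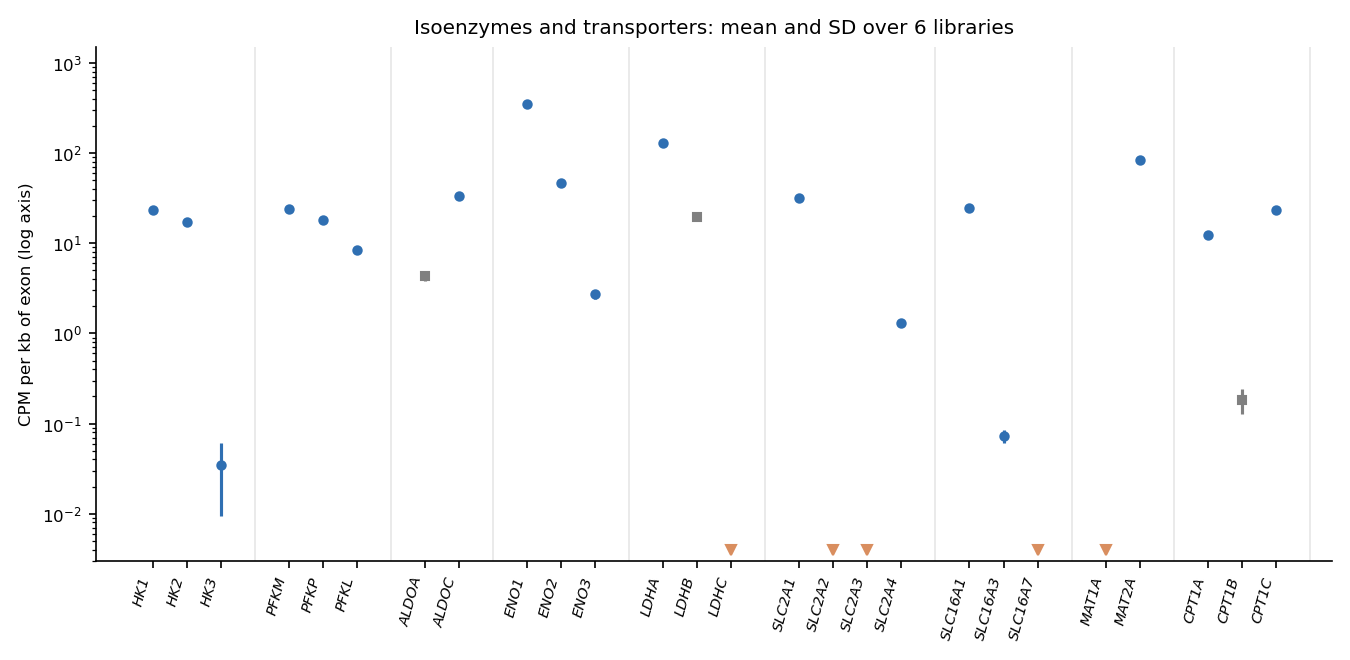
CPM per kb of exon (log axis; mean and SD over 6 libraries) for isoenzymes and transporters grouped by family. Triangles at the bottom mark genes not detected, and grey squares mark genes with at least 20% of their exon length shared with another gene on the same strand; in each family shown 1 to 3 members lie above 5 CPM per kb.

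The citric acid cycle and its regulators were nearly all expressed, with 28 of 29 genes above the limit and PDK4, an inhibitory kinase of pyruvate dehydrogenase, at 0.833 ± 0.211 CPM. MDH2 and IDH2 led per kb at 119 ± 6.51 and 87.7 ± 3.82 CPM per kb. SDHA, the catalytic subunit of complex II, read 1.21 ± 0.0887 CPM per kb beside 19.8 ± 0.234 for SDHB and 6.51 ± 0.279 for SDHC. In gluconeogenesis G6PC, PCK1 and FBP2 were not detected, and PCK2, the mitochondrial form, was at 57.1 ± 2.92 CPM. The pentose phosphate enzyme PGD of the oxidative branch measured 92.9 ± 3.22 CPM per kb, and TKT and TALDO1 of the other branch 39.97 ± 2.68 and 31.9 ± 1.28.

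Serine and one-carbon enzymes were expressed for 19 of 23 members. TYMS, which makes thymidylate, led per kb at 116 ± 3.80, with MAT2A at 83.5 ± 5.95, AHCY at 71.8 ± 3.80, PSAT1 at 51.5 ± 1.12, MTHFD2 at 38.0 ± 1.21 and PHGDH at 26.5 ± 1.01 CPM per kb. MAT1A and BHMT, the liver enzymes of methionine, were not detected. In glutamine metabolism GLUL, which makes glutamine, measured 244 ± 12.5 CPM, and GLS2, which breaks it down, 1.34 ± 0.350 CPM. PYCR1 and GOT2 led per kb at 60.6 ± 4.17 and 52.2 ± 1.54 CPM per kb. ASNS, which makes asparagine, read 4.54 ± 0.418 CPM with 44.6% of its exon length shared on the same strand.

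The media differ in arginine and lysine, and the genes that handle these 2 amino acids were as follows. SLC7A1, the main cationic amino acid transporter, measured 196, 190.0 and 181 CPM in heavy 1 to 3 and 205, 198 and 205 CPM in light 1 to 3. ASS1, which makes argininosuccinate from citrulline, lay at 0.213 ± 0.0697 CPM and ASL, the next enzyme, at 11.7 ± 1.13 CPM, while ARG1 was not detected, OTC lay at 0.0808 ± 0.0436 CPM and ARG2 was at 27.0 ± 1.47 CPM. Of the lysine pathway AASS was at 1.12 ± 0.174 CPM, AADAT at 20.7 ± 1.33 CPM and ALDH7A1 at 65.9 ± 1.66 CPM. In polyamine synthesis ODC1, SRM and SMS measured 127 ± 1.41, 74.8 ± 5.48 and 68.9 ± 2.07 CPM per kb, and SAT1, which starts polyamine breakdown, was at 1.18 ± 0.197. Among 28 amino acid transporters 21 were expressed, led per kb by SLC1A5 at 53.9 ± 2.37, SLC38A2 at 42.9 ± 1.19 and SLC38A1 at 32.3 ± 1.72 CPM per kb. SLC7A11, the cystine importer, was at 1.499 ± 0.128 CPM. The tryptophan enzymes IDO1, TDO2, KMO and KYNU were not detected.

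Genes of fatty acid and cholesterol synthesis followed. SCD, which makes monounsaturated fatty acids, stood at 152 ± 11.2, ACLY at 98.0 ± 3.16, HADHA of beta-oxidation at 83.6 ± 3.02 and FASN at 80.5 ± 6.75 CPM per kb. CPT1C and CPT1A measured 23.1 ± 1.44 and 12.5 ± 0.313 CPM per kb. In cholesterol synthesis FDPS led per kb at 64.9 ± 2.91, and PMVK and HMGCS1 measured 44.5 ± 1.88 and 41.4 ± 2.83 CPM per kb, and 17 of 22 members of that list were expressed. The export genes ABCA1 and APOE lay at 0.335 ± 0.0964 and 0.870 ± 0.176 CPM. CYP51A1, a step of the same pathway, read 4.35 ± 0.518 CPM with 79.4% of its exon length shared on the same strand. Steroid hormone enzymes were mostly missing: CYP11A1, CYP17A1, CYP19A1, CYP21A2, CYP11B1, CYP11B2, HSD3B1 and HSD3B2 make up the 8 of 10 not detected.

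Nucleotide enzymes were expressed for 21 of 23 members, led per kb by IMPDH2 at 101 ± 2.91 and PAICS at 73.2 ± 2.54 CPM per kb, and XDH was not detected. Antioxidant genes were led per kb by GSTP1 at 285 ± 20.9, PRDX5 at 270.0 ± 12.2, PRDX1 at 191 ± 6.96 and PRDX2 at 170.2 ± 9.15 CPM per kb. The NRF2 targets NQO1, GCLM and HMOX1 were at 11.1 ± 0.649, 12.2 ± 0.918 and 0.980 ± 0.374 CPM. The iron stores FTL and FTH1 measured 713 ± 43.2 and 282 ± 9.19 CPM per kb, TFRC 221 ± 7.87 CPM, and the iron exporter SLC40A1 5.51 ± 0.651 CPM. Of 30 drug-metabolising enzymes 11 were expressed. CYP3A4, CYP2E1, UGT1A1, ALDH1A1 and AHR were not detected there, whereas the efflux pumps ABCC1 and ABCB1 measured 165 ± 3.14 and 79.9 ± 5.52 CPM.

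The 6 libraries were close to each other. Among all genes with a mean from 1 to under 10 CPM the median coefficient of variation was 12.3%, where counting alone would give 9.60%. At a mean of 1000 CPM or more it was 4.25% against 0.432%. FOXK2, MPRIP and TMEM59 varied least relative to their mean among genes with at least 100 CPM, and FOXK2 measured 211, 208 and 209.8 CPM in heavy 1 to 3 and 211, 208 and 208 CPM in light 1 to 3. SAMD11, AMH and PCSK1N varied most among genes with at least 10 CPM. AMH, which encodes a hormone of the TGF-beta family, measured 24.1, 29.9 and 50.4 CPM in heavy 1 to 3 and 21.8, 34.3 and 30.8 CPM in light 1 to 3, with the highest value in heavy 3. EGR1, an immediate early gene that responds within minutes to stimulation, measured 236.1, 329 and 394 CPM in heavy 1 to 3 and 318, 437 and 499 CPM in light 1 to 3, and heavy 1 was the lowest. No 2 libraries agreed within sampling noise, since the chi-square of every pair was at least 3.16 times its degrees of freedom.

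Heavy and light medium were compared to see whether the 6 libraries can be described as 1 baseline. Of 15845 genes tested with edgeR's quasi-likelihood test, 1 passed a Benjamini-Hochberg adjusted p of 0.05, which is 0.00631%, and 808 had an unadjusted p below 0.05. That gene was ID2, an inhibitor of helix-loop-helix factors, which measured 245, 246 and 229 CPM in heavy 1 to 3 and 182, 183 and 156 CPM in light 1 to 3. The groups did not overlap, and ID2 was 0.47 higher (log2, SE 0.062) in heavy medium, with an edgeR adjusted p of 0.0235. Leaving out heavy 2 or any of light 1 to 3 left 0 genes past the threshold, although the log2 difference of ID2 stayed between 0.39 and 0.51 in all 6 fits with 1 library left out (edgeR adjusted p from 0.00081 to 0.335). PLXNA2, a semaphorin receptor, had the next smallest p, with a heavy mean of 52.6 CPM and a light mean of 39.6 CPM (log2 difference 0.41, SE 0.0645, edgeR adjusted p = 0.0943). Of the 779 listed genes that were tested 0 passed by edgeR and 63 had an unadjusted p below 0.05, while DESeq2 called 0 of them and limma-voom 0. Of the 24 genes tested whose 6 values are listed above, 8 had no overlap between media (33.3%), against 11.3% of all genes tested. Besides ID2, which was listed for its small p, GATA2, GATA3, MYC and TWIST1 were higher in each heavy library and ALK, CHRNA3 and SLC7A1 in each light library, with edgeR adjusted p between 0.596 and 0.984. The means of DBH were 2154 CPM for heavy and 2355 CPM for light libraries (log2 difference -0.13, SE 0.0543, edgeR adjusted p = 0.961).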

How the data were processed

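Poly(A) RNA of 6 wild-type SH-SY5Y libraries was read from a table in which the authors deposited raw counts of reads per gene for 59087 features. Per the labels' protocols, the libraries were made with a stranded kit. Per the submitters' processing notes, bcl2fastq 2.19.0, STAR 2.7.0f and featureCounts of Subread 1.6.4 were used with GRCh38.p13. DESeq2 1.22.1 and R 3.5.1 are named there too. The annotation release and counting options were not given in the sources used here.

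CPM were computed with TMM factors (0.992 to 1.010) from edgeR 4.0.16 in R 4.3.3. Symbols were matched to GENCODE 29 (56239 matched), which gave positions, union exon lengths for values per kb, and exon overlaps. Media were compared with edgeR's quasi-likelihood F test after filterByExpr, with Benjamini-Hochberg adjustment at 0.05, and with DESeq2 1.42.0 and limma 3.58.1 (voom) as alternatives. The fit was tested on simulated data. A p here measures the spread between these libraries only.

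The members, and 56 lists with 1208 genes (1206 in the table), were chosen with earlier results of these data known. Named by rule were HAND2, GATA3, DBH, TH and FMR1, the 25 genes of highest CPM, up to 8 members per list highest per kb and up to 8 not detected with their paralogs, the 8 largest and 8 smallest coefficients of variation, and the 6 smallest p between media. Other members were named after their values were seen. Some members of the lists are counted but not reported here by name, PGLS and GSTT1 were not analysed here, and knockout libraries were left out by design. Alternatives are given in the closing section.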

Additional observations from a re-analysis of the deposited data

Results flagged for a closer look

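For 331 named genes with more than 3 counts in a library, the highest or lowest of the 6 libraries was set against the others by Dixon's ratio of gap to range. It was past the 95% critical value for 6 samples in 20 genes, and chance alone gives about 1 in 20 groups. Heavy 1 to 3 stood apart in 6, 1 and 5 genes, and light 1 to 3 in 4, 0 and 4. One library stood above the rest for CPE at 82.3 CPM in light 3 (others 76.9 to 78.8), FMR1 at 42.1 CPM in heavy 1 (others 36.2 to 37.3) and GJC1 at 105 CPM in heavy 1 (others 87.5 to 93.9). A single high library was also seen for GRM8 at 122 CPM in light 3 (others 103 to 108), HOXD3 at 12.8 CPM in heavy 3 (others 10.1 to 10.9) and KCNK3 at 40.7 CPM in light 1 (others 32.3 to 35.2). The same held for PCSK1N at 29.1 CPM in heavy 3 (others 14.4 to 19.7), RPL4 at 2744 CPM in light 1 (others 2490.4 to 2576) and SYT1 at 72.0 CPM in heavy 1 (others 63.1 to 66.4). One library stood below the rest for DNMT3B at 15.2 CPM in heavy 3 (others 16.6 to 17.4), ENO2 at 185 CPM in heavy 1 (others 199 to 207), GRIK5 at 66.1 CPM in heavy 1 (others 72.8 to 75.6) and MDH2 at 388 CPM in heavy 1 (others 435 to 452). Genes under 5 CPM were ABCA1 at 0.514 CPM in heavy 2 (others 0.249 to 0.339), CACNA1A at 0.112 CPM in heavy 3 (others 0 to 0.0339), CHAT at 0.163 CPM in light 1 (others 0.0329 to 0.0746), CHRM5 at 0.294 CPM in light 1 (others 0.0678 to 0.131), GFRA1 at 0.920 CPM in light 3 (others 0.224 to 0.450), HOXB7 at 0.112 CPM in heavy 3 (others 0 to 0.0321) and SAT1 at 3.88 CPM in light 3 (others 2.44 to 2.98).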

How the results depend on the processing

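The number of protein-coding genes expressed stayed within 1.5 times of 11559 under every alternative tried: RLE factors, plain library size, 1 medium alone, each library left out, a limit of 0.5 or 2 CPM, and a mean of at least 1 CPM. Of 560 recounts of the 56 lists, 2 moved by more, both of the epithelial markers, which went from 0 to 1 gene expressed in heavy medium alone and without light 1. Leaving mitochondrial transcripts out of the total raised HAND2 to 851 CPM, GATA3 to 475 CPM and DBH to 2509.9 CPM, a factor of 1.11 that applies to every gene, and moved 236 of 479 named genes by more than 1 SD. RLE factors and plain library size moved the CPM of no named gene that far. Taking 1 medium alone or leaving 1 library out did not either. That outcome was fixed in advance, since such a subset cannot shift a mean by 1 SD of the same 6 libraries. With the length of the longest transcript in place of all exons, the value per kb of 233 of 478 named genes moved by more than 1 SD (median ratio over expressed genes 1.31), 46 of the 56 lists kept the same leading gene (among those that did not, TUBA1A led in place of STMN2, CDK4 of ODC1, NEUROD1 of NEUROG2, KRT19 of EPCAM, HCN3 of ORAI2, DRD2 of ADRA2C, PTK7 of ALK, PCK2 of PYGB and ACTB of TMSB10), and Spearman's rho between the 2 values per kb was 0.980 across 11559 genes.

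Between media, 1 gene was called by edgeR, 39 with no filter on low counts, 9 by DESeq2, and 0 to 8 when 1 library was left out. With the replicate number as a block, 13 were called, 9 of them higher in heavy medium, and MYC was the 1 listed gene among them (adjusted p = 0.0405). The numbers give no sign of pairing, since deviations of same-numbered libraries correlated at 0.061, -0.009 and -0.073. RLE factors, limma-voom and a filter of 1 CPM in at least 3 libraries each called 1. The cause of these differences was not tested. The median coefficient of variation of expressed genes was 6.63% over all 6 libraries, 5.30% in light medium alone, and between 5.96% (without heavy 1) and 6.87% (without heavy 2) when 1 library was left out. Depth limits the low class: at 1 CPM a library holds about 29.5 to 40.2 counts.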

Other observations

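Some groups outside the comparisons above were read from the same 6 libraries. The FMR1 paralogs FXR1 and FXR2, RNA-binding proteins of the same family, measured 14.3 ± 0.555 and 28.1 ± 1.09 CPM per kb beside 4.24 ± 0.241 for FMR1. HAND2-AS1, the divergent noncoding RNA of the HAND2 locus, measured 387 ± 15.8 CPM, and 24.1% of the exon length of HAND2 is shared with it on the opposite strand. The nuclear noncoding RNAs MALAT1 and NEAT1 measured 219 ± 44.4 and 199.7 ± 50.2 CPM in these poly(A)-selected libraries. Creatine kinase was present as CKB (489 ± 55.7 CPM) and as the mitochondrial pair CKMT1A and CKMT1B (8.08 ± 0.668 and 10.7 ± 1.01 CPM, near-identical copies whose reads may be split), while CKM and CKMT2 of muscle were not detected. Of the metallothioneins MT2A and MT1X were at 5.17 ± 0.341 and 2.66 ± 0.389 CPM and MT3, the neuronal form, was not detected. The oxygen-regulated transcription factors HIF1A and EPAS1 measured 35.6 ± 1.72 and 23.8 ± 0.589 CPM per kb, VEGFA, their target, 8.11 ± 0.256, and CA9, another target, lay at 0.0562 ± 0.0434 CPM. Among beta-thymosins, TMSB10 (1435 ± 57.6 CPM per kb) and TMSB15A (139.7 ± 4.71) exceeded TMSB4X (48.2 ± 3.30) by more than their SDs.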
